A study of Mus musculus with 6 samples.

Results

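Fibroblasts of the heart (CF), which build its connective matrix, were cultured for 48 h with phosphate-buffered saline (PBS) or with the secretome of Ccrl2- macrophages, and total RNA of each culture was hybridised to an Affymetrix array. The comparison is the log2 value on the Ccrl2- secretome array minus that on the PBS array, which is titled sham. It uses 2 of the 6 arrays of the series and covers the 10057 of 19505 named genes whose higher value reached the floor, 6.55, which is the median value over named probe sets on the arrays. A log2 difference of 1 is 2-fold. A gene past the floor is counted higher or lower when the difference is at least 2-fold. Where the dimmer value is below the floor, the difference is measured from the floor and written as "at least".

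The macrophages came from hearts of wild-type mice 1 week after pressure overload by transverse aortic constriction, in which the aorta is narrowed by surgery. Cells of 6 hearts were mixed before they were sorted by Ccrl2, an atypical receptor that binds chemerin and presents it to other cells. The labels give C57BL/6N and an age of 15 to 16 weeks for every sample, and do not say whether this is the age of the macrophage donors, the fibroblast donors or both. They state neither the passage nor the purity of the culture. The source labels name PBS and the secretome, while the protocols speak of culture with the macrophages themselves and the description field calls the material cardiac macrophages. The source labels were followed. The remaining arrays are of CF with the secretome of Ccrl2+ macrophages, and of cardiomyocytes (CM) with PBS, Ccrl2- secretome or Ccrl2+ secretome. Each group had 1 array. No spread between samples could be estimated, and no test was made. Precision is limited by this number of arrays.

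The comparison asks what the factors released by Ccrl2- macrophages of the pressure-loaded heart do to gene expression in fibroblasts. Fibroblasts carry receptors for interleukin-1, tumour necrosis factor, interferons and bacterial products. Many of these receptors lead to NF-kB, a family of transcription factors held inactive by inhibitory IkB proteins, whose targets include chemokine genes, adhesion molecules and the genes of its own inhibitors. Interferons act through Janus kinases on STAT and IRF factors, which bind the interferon-stimulated response element of antiviral genes. The hypoxia-inducible factors (HIF) are degraded after prolyl hydroxylation and, when stable, bind a short core sequence in genes of glycolysis, oxygen sensing and mitochondrial turnover.

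Promoter stretches of genes that were higher on the Ccrl2- secretome array are shown first, because many of the largest differences lay in known targets of these pathways. The sequences are from RefSeq, build GRCm38.p6, which held a promoter entry of 300 bases for 15691 of the 19505 genes. They were taken from the bases before the annotated start, 5′ to 3′ on the strand of the gene. The first set holds the kappa B consensus, the NF-kB binding sequence, in capitals. In each set the genes shown were chosen, after their values were seen, from the members with the largest differences and a match before the start. A run of 11 or 12 capitals holds overlapping matches on both strands.
Cxcl2, chr5:90903763-90903852, plus strand: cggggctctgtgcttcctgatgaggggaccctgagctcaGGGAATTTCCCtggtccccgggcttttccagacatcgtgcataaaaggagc
Cxcl1, chr5:90891135-90891224, plus strand: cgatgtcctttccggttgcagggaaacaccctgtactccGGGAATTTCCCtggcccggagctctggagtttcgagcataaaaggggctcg
Cxcl10, chr5:92348943-92349032, minus strand: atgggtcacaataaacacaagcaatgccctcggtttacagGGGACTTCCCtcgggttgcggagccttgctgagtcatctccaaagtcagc
Tnip1, chr11:54962947-54963036, minus strand: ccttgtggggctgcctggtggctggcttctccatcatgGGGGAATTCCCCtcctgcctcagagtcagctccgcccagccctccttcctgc

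The second set holds the interferon-stimulated response element, searched on both strands as a pair of TTTC runs with any 2 bases between them, in capitals. Ifit1 and Ifit3b each carried a pair of matches within the stretch shown.
Gbp2, chr3:142620564-142620653, plus strand: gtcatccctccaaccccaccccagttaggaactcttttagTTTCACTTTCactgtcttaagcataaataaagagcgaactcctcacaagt
Ifit1, chr19:34640764-34640853, plus strand: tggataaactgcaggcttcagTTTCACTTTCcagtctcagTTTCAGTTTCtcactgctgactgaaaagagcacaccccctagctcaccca
Ifit3b, chr19:34607763-34607852, plus strand: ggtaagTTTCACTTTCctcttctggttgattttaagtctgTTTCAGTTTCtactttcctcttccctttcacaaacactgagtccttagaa

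The third set holds the hypoxia response core, searched as ACGTG on both strands, in capitals. The Ak4 match is a palindrome read on both strands.
Slc16a3, chr11:120949013-120949066, plus strand: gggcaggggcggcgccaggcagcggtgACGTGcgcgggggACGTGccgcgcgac
Egln3, chr12:54204059-54204124, minus strand: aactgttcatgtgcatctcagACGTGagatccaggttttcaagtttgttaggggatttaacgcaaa
Ak4, chr4:101419453-101419534, plus strand: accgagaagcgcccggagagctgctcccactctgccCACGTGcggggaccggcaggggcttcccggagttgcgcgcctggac

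Over whole promoter entries, 5.92% of the 8188 genes past the floor with an entry held the kappa B consensus. It was present in 14.3% of genes at least 2-fold higher (69 of 482), in 24% of those at least 8-fold higher (25 of 104) and in 6.01% of genes at least 2-fold lower (22 of 366). Among chemokine, acute phase and NF-kB genes it was found in 19 of 39 that were at least 2-fold higher and in 2 of 37 that were not, or that lay below the floor. The interferon-stimulated response element was present in 3.79% of all genes past the floor, 13.3% of higher genes, 20.2% of those at least 8-fold higher and 3.83% of lower genes. In antiviral, guanylate-binding protein and major histocompatibility complex (MHC) class I genes it was held by 23 of 47 higher members and also by 7 of 17 others. The hypoxia core, a frequent short sequence, was present in 30.1% of all genes, 27.8% of higher and 23% of lower genes. It was held by 20 of 27 higher members of the glycolysis and HIF lists and by 13 of 21 others. The AP-1 site, the Fos and Jun sequence TGANTCA, was present in 6.3% of all genes, 14.9% of higher and 10.7% of lower genes. A match is a description of these letters and not of binding.

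**Figure D1:**
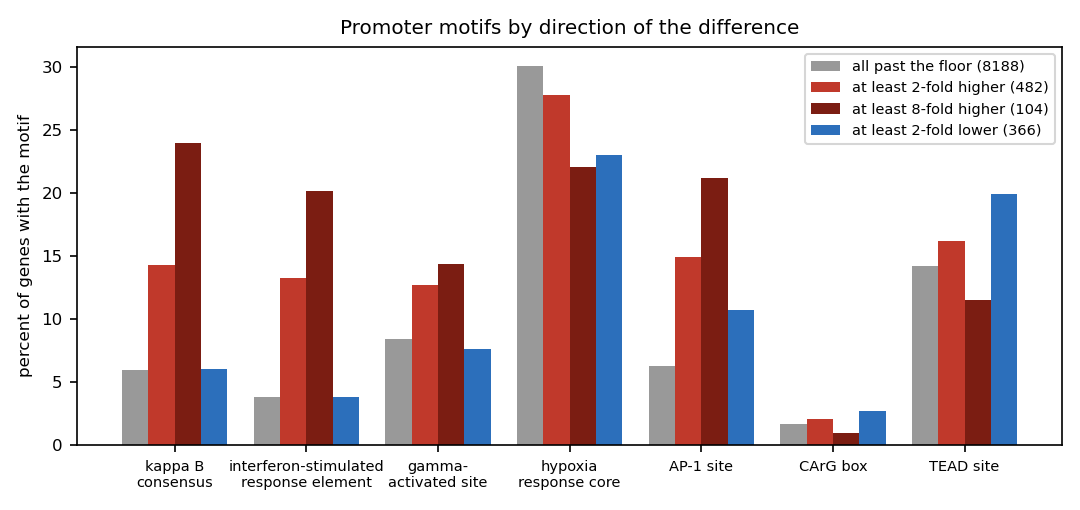
Bars give the percent of genes whose RefSeq promoter entry holds each of 7 motifs, for all genes past the floor (grey), genes at least 2-fold higher (red), at least 8-fold higher (dark red) and at least 2-fold lower (blue) on the Ccrl2- secretome array, with the number of genes in brackets. The kappa B and interferon-stimulated bars stand at 24% and 20.2% in the genes at least 8-fold higher, against 5.92% and 3.79% of all genes past the floor.

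The differences were lopsided in size. Of 10057 genes past the floor, 622 (6.18%) were counted higher on the Ccrl2- secretome array and 486 (4.83%) lower, and the median difference was -0.09. Negative control probe sets passed the same limits in 6.84% and 6.21% of 2995, so these counts did not exceed those of the controls. With the floor at the controls' 95th percentile (10.74), 315 of 4373 genes (7.2%) were counted higher and 214 (4.89%) lower, against 9.93% and 6.95% of 302 controls. Measured from the floor where a value lay below it, 560 genes (5.57%) were at least 2-fold higher against 4.74% of controls, and 438 (4.36%) lower against 4.37%. On the same measure 261 genes (2.6%) were at least 4-fold higher against 0.801% of controls, 135 (1.34%) at least 8-fold against 0.267%, and 71 (0.706%) at least 16-fold against 0.0668%. Lower genes reached 4-fold in 11 cases (0.109%) against 0.501% of controls. Bmp3 alone reached 8-fold (0.00994%), against 0.234% of controls. Controls were at least 16-fold lower in 0.1% of cases, against 0 genes. Any single lower gene, Bmp3 included, therefore lies within the range seen in controls. Since 0.0668% of controls were at least 16-fold higher, the same holds for a single higher gene of up to 16-fold.

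**Figure D2:**
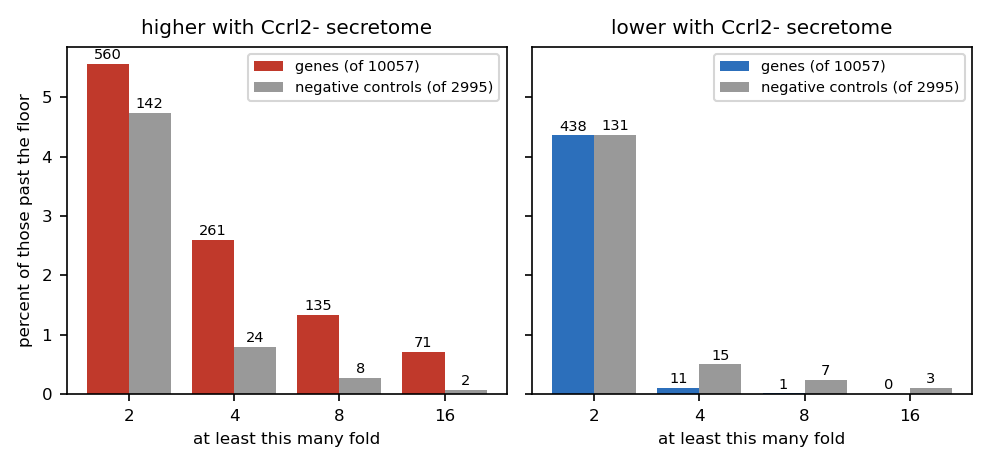
Bars give the percent of genes (coloured) and of negative control probe sets (grey) past the floor that differed by at least 2-, 4-, 8- and 16-fold, higher on the left and lower on the right, measured from the floor where a value lay below it, with the number above each bar. The share of higher genes was 5.57% against 4.74% of controls at 2-fold and 2.6% against 0.801% at 4-fold, and that of lower genes 4.36% against 4.37% and 0.109% against 0.501%.

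The array carried the RNA of fibroblasts. Of 22 fibroblast identity genes on the array 18 were past the floor, among them Dcn, a collagen-binding proteoglycan, at 17.53 with PBS and 17.66 with secretome, and Tcf21, a transcription factor of cardiac fibroblasts, at 15.0 and 14.15. Pi16, Scara5, Clec3b and Col15a1 lay below the floor on both. Both cultures also carried macrophage transcripts: 19 of 24 macrophage markers were past the floor, and the pan-leukocyte gene Ptprc lay at 9.06 with PBS and 9.17 with secretome. The summed log2 level of the macrophage list was 218.07 with PBS and 207.54 with secretome. Cardiomyocyte markers were past the floor in 18 of 21 cases (summed 182.49 and 175.27), with the troponin gene Tnnt2 at 16.12 and 15.08. Of the 14 neutrophil markers 0 reached the floor (summed 55.36 and 57.98), and T, B, NK and mast cell markers did so in 2 of 18 cases. In a bulk sample, fewer cells of a type and less RNA per cell cannot be told apart. The median of the negative controls lay between 6.2 and 6.71 on the 6 arrays, so values near the floor are near background. Over all named genes 10057 of 19505 were past the floor, as were 2995 of 5222 negative controls. The 95th percentile of the controls on the 2 arrays compared was 10.74, which is above the Ptprc values. The poly-A spike-in transcripts had a median difference of -0.31, and the spike-ins added at hybridisation differed by -0.065. Genes with near-identical copies, such as the Serpina3, Ifit, H2, Bcl2a1 and C1s genes, are uncertain, since probes can bind related transcripts.

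**Figure D3:**
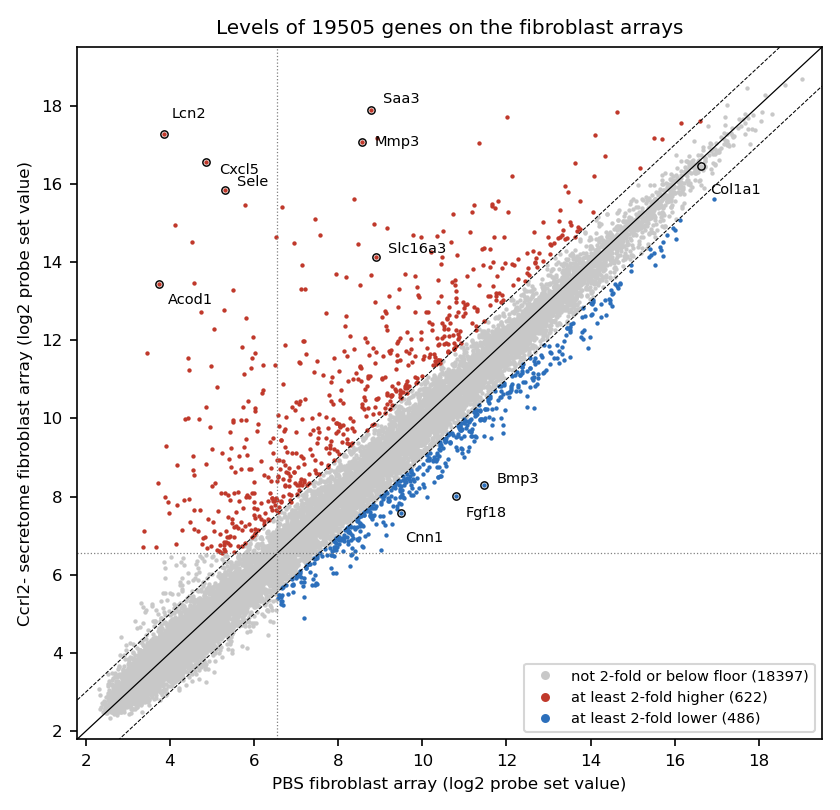
Each point is a gene, with its log2 value on the PBS fibroblast array on the x axis and on the Ccrl2- secretome array on the y axis. The solid line marks equal values, the dashed lines 2-fold, and the dotted lines the floor of 6.55. Red points (622, at least 2-fold higher) spread far above the line, up to Lcn2 at 17.28 against 3.85, while blue points (486, at least 2-fold lower) stay near it.

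Secreted inflammatory signals gave the largest differences. Of the 15 CXC chemokine ligands 9 were past the floor, 8 of these were counted higher and 0 lower, with a median of 4.57. Of these 9, 7 had PBS values below the floor and passed it through the secretome array, and the median over all 15 with no floor was 1.54. The 6 below the floor on both arrays included Cxcl9 and Cxcl11, which like Cxcl10 are known as interferon-induced ligands. Cxcl5, a neutrophil attractant, lay at 4.86 with PBS and 16.56 with secretome, which is at least 1031-fold higher when counted from the floor. Its relative Cxcl3 lay at 5.73 and 10.3, at least 3.75 higher. Cxcl16, a membrane-bound ligand that is also shed, lay at 11.79 and 15.56 (3.77 higher), and the B cell attractant Cxcl13 at 5.65 and 9.05, at least 2.5 higher. Cxcl12, the homeostatic ligand of fibroblasts, lay at 13.37 and 13.97, less than 2-fold apart.

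Of 20 CC and CX3C ligands 11 were past the floor, with 8 counted higher, 0 lower and a median of 3.39. These ligands mainly attract monocytes and lymphocytes. The monocyte attractants Ccl7 (8.38 with PBS and 15.6 with secretome) and Ccl2 (12.02 and 17.7) were 7.22 and 5.68 higher. Ccl5 lay at 3.92 and 9.29, at least 2.74 higher. Ccl20, the ligand of Ccr6, lay at 6.91 and 10.3 (3.39 higher), and Ccl9 at 11.71 and 14.64 (2.93 higher). Ccl17 (7.23 and 7.05) and Ccl25 (6.8 and 7.74) were less than 2-fold apart. The eosinophil attractants Ccl11 and Ccl24, and Ccl8 and Ccl19, lay below the floor on both arrays. With no floor the median over all 20 was 0.88.

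Cytokine genes divided into a few that were far higher and many near the floor. Of 30 interleukin and related genes on the array 12 were past the floor, with 6 counted higher, 1 lower and a median of 1.95, which was 1.18 with values raised to the floor and 0.2 with no floor. Il1a and Il1b, both forms of interleukin-1, lay at 3.46 and 4.73 with PBS and at 11.68 and 12.72 with secretome, at least 5.13 and 6.17 higher. Tnf lay at 5.04 and 12.3, at least 5.75 higher. These are cytokines that activated macrophages are known to make in quantity. Of 19 macrophage markers past the floor 4 were counted higher and 9 lower, with a median of -0.68. Cd14 (8.54 and 11.3) was among the higher and Csf1r (11.95 and 10.85) among the lower. The part of macrophages in these values was not tested. Il6 lay at 8.79 and 13.67 (4.88 higher). Lif, of the same family, lay at 5.85 and 10.44, at least 3.89 higher. The antagonist gene Il1rn lay at 5.01 and 8.28, at least 1.73 higher. Il15, a growth factor of NK cells, was lower at 8.82 and 7.71, and Il33, the alarmin of stromal cells, lay at 7.21 and 7.85. Interferon genes Ifnb1 and Ifng and the T cell cytokines Il4, Il5, Il13 and Il17a lay below the floor on both arrays. Among colony-stimulating factors, the neutrophil factor Csf3 lay at 4.56 and 8.67 (at least 2.12 higher) and the macrophage factor Csf1 at 16.16 and 17.55 (1.39 higher), while Csf2 was below the floor.

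Receptors for these signals differed less. Of 30 cytokine and chemokine receptor genes past the floor (45 on the array) 11 were counted higher and 2 lower, with a median of 0.74. Ccrl2 itself, whose expression in the sorted macrophages defined the secretome, lay at 6.5 with PBS and 11.37 with secretome in the fibroblast culture, at least 4.82 higher. The interleukin-13 decoy receptor Il13ra2 (4.54 and 9.03) was at least 2.48 higher, and the signalling receptor Il13ra1 (10.13 and 12.71) was 2.58 higher. The interleukin-1 receptor chains Il1r1 (13.74 and 14.85) and Il1rap (11.61 and 12.91) were 1.11 and 1.3 higher. Osmr, a receptor of oncostatin M, lay at 12.77 and 14.24. The interferon receptor chains Ifnar1 (11.29 and 12.75) and Ifnar2 (13.54 and 14.96) were 1.46 and 1.42 higher, and the interferon gamma receptor chains Ifngr1 and Ifngr2 differed by 0.94 and 0.68. The shared chain Il6st lay at 16.32 and 16.37, and Tnfrsf1a at 13.3 and 13.43, so these had nearly the same value on both arrays.

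Acute phase proteins are secreted in quantity during infection and injury, many of them by the liver. Of 29 such genes on the array 14 were past the floor, 12 of them counted higher and 0 lower, with a median of 5.12 (0.68 over all 29 with no floor). Lcn2, a protein that withholds iron from bacteria, lay at 3.85 with PBS and 17.28 with secretome, at least 1698-fold higher, the largest difference of any named gene. Saa3, a serum amyloid gene expressed outside the liver, lay at 8.77 and 17.88, which is 553-fold. The pentraxin Ptx3 lay at 6.53 and 14.65, and the haemoglobin-binding protein Hp at 7.58 and 14.7 (7.12 higher). Lbp, which delivers lipopolysaccharide to Cd14, lay at 8.85 and 14.98 (6.13 higher). Steap4, a metalloreductase, lay at 5.28 and 12.78, at least 6.23 higher. Genes listed below the floor on both arrays included Saa1, Saa2, Crp and Orm1, of which liver is the known source, and the neutrophil genes S100a8 and S100a9.

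Receptors that recognise microbes and damaged cells were in part higher: 9 of 18 past the floor were counted higher and 2 lower, and the median was 1.16. With no floor the median over all 23 on the array was 0.62. Clec4e, a receptor for mycobacterial glycolipids and dead cells, lay at 5.79 with PBS and 15.47 with secretome, at least 8.92 higher, and its neighbour Clec4d at 7.08 and 10.37 (3.29 higher). Olr1, a scavenger receptor for oxidised lipoproteins, lay at 7.14 and 13.92 (6.78 higher), and the macrophage scavenger receptor Marco at 6.03 and 11.68, at least 5.13 higher. Tlr2, a receptor of bacterial lipoproteins, lay at 9.77 and 14.68 (4.91 higher), and Tlr3, which binds double-stranded RNA, at 9.63 and 12.2 (2.57 higher). Tlr4 (11.71 and 12.18) was less than 2-fold apart. Tlr7 (11.65 and 10.23) and Tlr13 (8.79 and 7.52), which act in endosomes of myeloid cells, were lower. Clec4e, Marco, Tlr7 and Tlr13 are known mainly from macrophages, whose markers moved in both directions, and the cells that carried them were not identified.

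The signalling loop of NF-kB was higher as a group. Of 28 subunit and feedback genes past the floor (29 on the array) 22 were counted higher and 0 lower, with a median of 2.52. Several of the largest differences were in inhibitors. Tnfaip3, the deubiquitinase A20, lay at 8.46 and 14.45 (5.99 higher), its partner Tnip1 at 9.59 and 13.7 (4.11 higher), and Nfkbia, the IkB-alpha gene, at 10.2 and 14.26 (4.06 higher). Zc3h12a, an RNase that destroys cytokine messages, lay at 7.19 and 11.97 (4.78 higher). Irak3, an inhibitor of receptor signalling, lay at 11.62 and 13.87. Among the subunits, Nfkb2 (6.73 and 9.27) and Rel (9.11 and 11.05) were 2.54 and 1.94 higher, and Rela (14.14 and 15.08) was 0.94 higher. The kinase subunits Ikbkb (7.93 and 8.31) and Ikbkg (6.87 and 6.67) were less than 2-fold apart. The cofactor genes Bcl3 (6.7 and 10.89) and Nfkbiz (7.5 and 11.47), which adjust the choice of targets, were 4.19 and 3.97 higher.

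Of 20 past-floor genes for SOCS, STAT, C/EBP and IRF proteins, 8 were counted higher and 0 lower (median 0.81). Irf7, the amplifier of the interferon response, lay at 5.51 and 9.96 (at least 3.41 higher), and Irf1 at 7.85 and 11.05 (3.2 higher). Jak2 lay at 10.82 and 14.18 (3.36 higher), and Cebpd, an acute phase factor, at 10.77 and 13.42 (2.65 higher). Stat3 (12.85 and 13.56), Stat6 (12.32 and 12.49) and Tyk2 (9.97 and 9.95) were less than 2-fold apart. Immediate early genes were mixed, 12 of 29 counted higher and 2 lower with a median of 0.69. The NF-kB target Ier3 (10.74 and 15.23) and the AP-1 member Junb (7.1 and 10.44) were 4.49 and 3.34 higher. Dusp1, a phosphatase that ends MAP kinase signalling, was lower at 14.66 and 13.33, and Fos and Fosb lay below the floor.

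Adhesion molecules that hold leukocytes were among the largest differences. Of 13 past the floor (17 on the array) 7 were counted higher and 1 lower, with a median of 1.2 (0.57 over all 17 with no floor). Sele, E-selectin, lay at 5.3 with PBS and 15.84 with secretome, at least 626-fold higher. Selp, P-selectin, lay at 8.93 and 17.17 (8.24 higher). Icam1 and Vcam1, ligands of leukocyte integrins, lay at 7.22 and 14.11 with PBS and at 13.31 and 17.24 with secretome, 6.09 and 3.13 higher. The selectins are known as endothelial and platelet molecules. Of 15 endothelial markers 11 were past the floor (summed over the list, 121.93 with PBS and 120.65 with secretome), 0 counted lower and 2 higher, namely Fabp4 (8.05 and 9.8) and Flt1 (9.59 and 10.79). Pecam1 lay at 8.31 and 8.03, Cdh5 at 10.49 and 9.96, and Kdr at 6.59 and 6.42, each less than 2-fold apart. Which cells carried the selectin transcripts was not tested. On the cardiomyocyte arrays, with Pecam1 at 13.87 and 14.08, Selp lay at 12.9 with PBS and 12.62 with secretome and Sele at 9.83 and 9.22. Alcam, the lower gene of the list, lay at 14.1 and 12.8.

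Genes of small-molecule mediators differed in both directions. Of 16 prostaglandin and leukotriene genes past the floor 5 were counted higher and 3 lower, and the median of -0.01 was 0.1 with a loess trend removed, so it has no settled sign. Genes of the inducible chain that leads to prostaglandin E2 were higher. The phospholipase gene Pla2g4a lay at 9.97 and 12.02 (2.05 higher), the cyclooxygenase gene Ptgs2 at 6.73 and 11.87 (5.14 higher), and the terminal synthase gene Ptges at 5.49 and 13.28, at least 6.73 higher. The other synthases of the same product, Ptges2 (8.88 and 9.02) and Ptges3 (10.63 and 11.07), were less than 2-fold apart, as was the degrading enzyme Hpgd (12.49 and 11.82). The thromboxane synthase gene Tbxas1 (8.24 and 6.8) and the prostaglandin D synthase gene Hpgds (11.16 and 9.99) were lower.

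Of 15 genes for itaconate, nitric oxide, sterol and oxidase enzymes past the floor (25 on the array), 8 were counted higher and 1 lower (median 1.48). With no floor the median over all 25 was 0.18. Acod1, which makes itaconate, lay at 3.75 and 13.43, at least 6.88 higher. Nos2, the inducible nitric oxide synthase, lay at 4.69 and 9.98 (at least 3.43 higher), and Gch1, which starts synthesis of its cofactor, at 8.22 and 11.61 (3.39 higher). The later enzymes of that cofactor, Pts (9.62 and 9.47) and Spr (8.0 and 8.18), were nearly equal. Ch25h and Cyp7b1, which act in sequence to make an oxysterol that attracts B cells, lay at 9.16 and 7.23 with PBS and at 14.87 and 11.66 with secretome, 5.71 and 4.43 higher. The oxidase genes went opposite ways: Cybb, the phagocyte form, lay at 11.13 and 14.77 (3.64 higher) and Nox4, the fibroblast form, at 8.47 and 6.9 (lower by 1.57). Ido1, Arg1 and Kynu lay below the floor on both arrays.

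Interferon-stimulated genes were higher across several functional classes. Of 48 antiviral effector genes on the array 39 were past the floor, 33 counted higher and 1 lower, with a median of 3.07. Ifit1, which binds foreign RNA caps, lay at 5.71 with PBS and 11.83 with secretome, at least 5.28 higher, and Oasl2 at 8.52 and 13.41 (4.89 higher). Rsad2, viperin, lay at 5.44 and 9.65 (at least 3.1 higher), and Bst2, tetherin, at 9.12 and 12.75 (3.63 higher). The ubiquitin-like modifier Isg15 lay at 4.46 and 7.93 (at least 1.38 higher) and its protease Usp18 at 7.07 and 11.45 (4.38 higher). Members were not uniform. Ifit2 lay at 10.45 and 10.49, and Ifi27 was lower at 10.44 and 9.32. Oas1a, Oas2, Oas3 and Oasl1 were among the 9 below the floor on both arrays.

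The 12 guanylate-binding and immunity-related GTPases on the array, which attack membranes around intracellular microbes, were all past the floor and all counted as higher, with a median of 4.36. The largest was Gbp2 (7.44 and 15.1, 7.66 higher). The smallest was Gbp8 (5.47 and 7.42), at least 0.87 higher and so under 2-fold when counted from the floor, followed by Irgm1 (12.14 and 13.96, 1.82 higher). Iigp1 lay at 4.98 and 11.34, at least 4.79 higher. Among 9 sensors of cytosolic nucleic acid, 6 were counted higher and 0 lower (median 1.33). The DNA sensor family gene Ifi204 lay at 10.68 and 14.51 (3.83 higher) and the RNA sensor genes Ifih1 and Ddx58 at 9.74 and 11.01 with PBS and 12.04 and 12.89 with secretome. The adaptor Mavs (10.75 and 10.52) and the DNA sensor Cgas (7.11 and 7.33) were nearly equal.

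Genes of antigen presentation by MHC class I were higher from peptide cutting to surface display. Of 19 genes past the floor 18 were counted higher and 0 lower (median 2.12). The immunoproteasome gene Psmb8 lay at 6.02 and 10.2 (at least 3.65 higher), the peptide transporter gene Tap1 at 6.97 and 10.21 (3.24 higher), and the loading factor Tapbp at 11.62 and 14.34 (2.72 higher). The heavy chain gene H2-K1 lay at 11.47 and 14.37, and B2m, the invariant light chain, at 17.24 and 18.01, the member not counted higher. Psmb9 (4.84 and 6.96) and H2-M3 (5.71 and 7.16) were at least 0.41 and 0.61 higher, so under 2-fold when counted from the floor. Cd274, the inhibitory ligand PD-L1, lay at 4.95 and 9.77, at least 3.22 higher. MHC class II differed from this: 1 of 9 genes reached the floor, H2-Ab1 at 5.18 and 7.05, at least 0.5 higher, and Ciita, the master regulator of the class, lay below it. Complement was mixed, with 9 of 22 counted higher and 4 lower (median 0.22). Cfb of the alternative pathway lay at 4.46 and 11.24 (at least 4.69 higher) and the classical protease gene C1s1 at 8.15 and 11.72 (3.57 higher). The recognition chains C1qa (11.22 and 9.42), C1qb (11.43 and 9.98) and C1qc (9.84 and 8.11) were lower.

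Cell death genes gave 9 of 22 counted higher and 0 lower (median 0.66). Casp4, the caspase of the non-canonical inflammasome, lay at 10.38 and 13.54 (3.16 higher), and Mlkl, the effector of necroptosis, at 10.7 and 13.5 (2.8 higher). The sensor gene Nlrp3 lay at 5.52 and 8.1, at least 1.55 higher, while Casp1 (7.02 and 6.94) and Casp8 (13.87 and 14.14) were less than 2-fold apart. The death receptor gene Fas, at 8.46 with PBS, was 2.54 higher. The survival genes Bcl2a1a, Bcl2a1b and Bcl2a1d were 2.11, 1.61 and 1.94 higher, and Mcl1 (14.08 and 14.12) and Xiap (12.2 and 11.99) were nearly equal. Of 18 p53 targets 2 were counted higher, Fas and Plk2, and 1 lower.

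**Figure D4:**
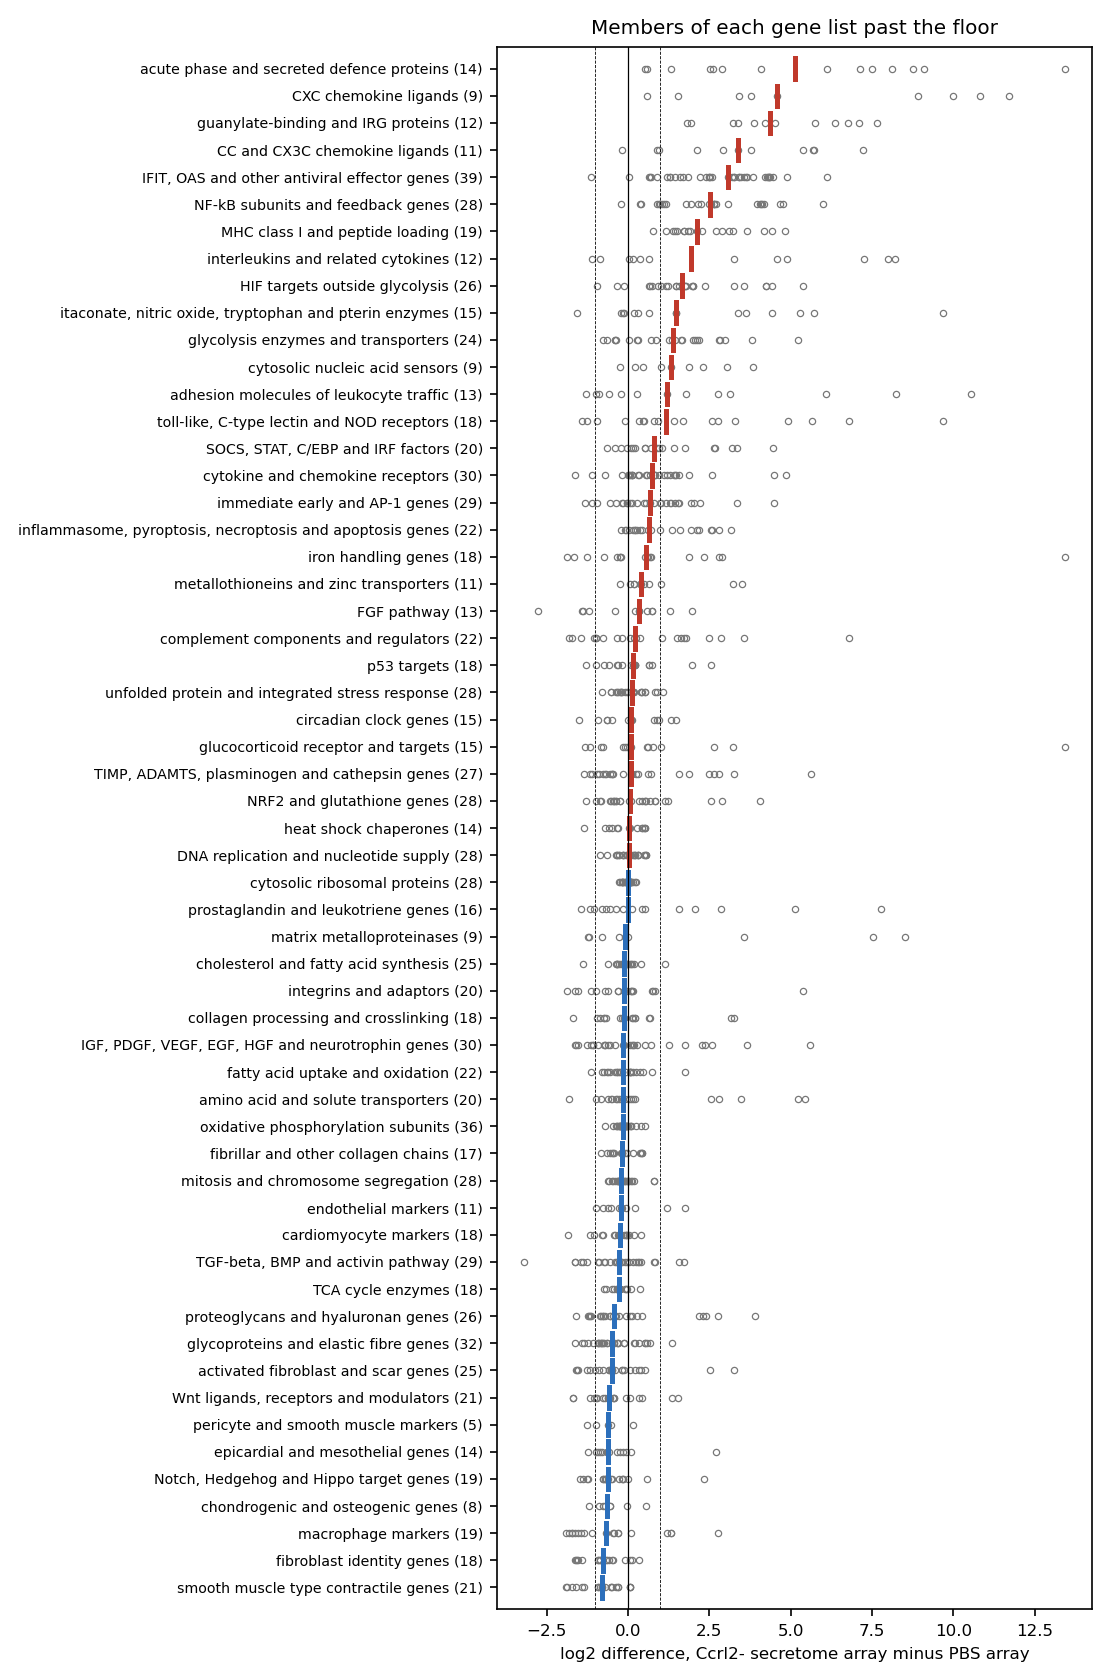
Each row is a gene list with at least 5 members past the floor (number in brackets), each open circle a member's log2 difference between the Ccrl2- secretome and PBS fibroblast arrays, and each thick bar the list's median, red above 0 and blue at or below it. Dashed lines mark 2-fold. Medians run from 5.12 for acute phase proteins to -0.79 for contractile genes, and ribosomal protein genes lie within a narrow band around 0.0.

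Many transcripts of glycolysis and of the hypoxia response were higher, and those of the respiratory chain were not. Of 24 glycolysis genes past the floor 14 were counted higher and 0 lower, with a median of 1.4. Slc2a1, the gene of the main glucose transporter of fibroblasts, lay at 14.08 with PBS and 16.19 with secretome (2.11 higher). Among kinases, Hk2 (8.91 and 11.71) and Pfkl (9.83 and 13.64) were 2.8 and 3.81 higher. Pfkm, the muscle form, lay at 9.06 and 8.67. Lower in the pathway, Tpi1 (12.86 and 15.03), Pgk1 (13.28 and 15.34) and Pgam1 (12.63 and 14.27) were 2.17, 2.06 and 1.64 higher, and Ldha (15.7 and 17.15) was 1.45 higher. Gapdh (17.2 and 17.51) and Pkm (16.02 and 16.74) were less than 2-fold apart. The lactate exporter Slc16a3 lay at 8.89 and 14.12 (5.23 higher), while the importer form Slc16a1 lay at 12.11 and 12.13. Pdk1, which holds pyruvate out of the mitochondrion, lay at 8.84 and 11.81 (2.97 higher), while Pdk4 (7.19 and 6.56) and Pdk3 (9.24 and 8.88) were not higher.

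HIF targets outside glycolysis gave 19 of 26 counted higher and 0 lower (median 1.66). Ndufa4l2, which lowers electron transport, lay at 5.76 and 11.14 (at least 4.59 higher), and the mitophagy receptor gene Bnip3 at 8.19 and 12.63 (4.44 higher). The HIF hydroxylase genes Egln3 (11.22 and 15.45) and Egln1 (12.18 and 13.93) were 4.23 and 1.75 higher. Vegfa, the endothelial growth factor, lay at 12.48 and 14.24 (1.76 higher), and Adm, the vasodilator adrenomedullin, at 14.34 and 16.72 (2.38 higher). Hif1a and Epas1, the factors themselves, were 1.24 and 1.79 higher. Car9 and Car12, further known targets, lay below the floor on both arrays. None of the 36 oxidative phosphorylation genes and none of the 18 TCA cycle genes past the floor reached 2-fold, with medians of -0.16 and -0.26 against -0.09 over all genes. Fatty acid oxidation (1 higher and 1 lower of 22, median -0.15) and sterol synthesis (1 and 1 of 25, median -0.11) were likewise near the median of all genes. In the latter, the exporter Abca1 lay at 12.73 and 13.88 and the last enzyme, Dhcr7, at 12.1 and 10.72.

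Of 11 metallothionein and zinc transporter genes 3 were counted higher and 0 lower (median 0.41). Slc39a14, a zinc and iron importer, lay at 10.44 and 13.96 (3.52 higher) and the metallothionein gene Mt2 at 14.63 and 17.85 (3.22 higher). In iron handling 5 of 18 were counted higher and 3 lower (median 0.56), and Lcn2 and Cp of the higher genes are also in the acute phase list. The importers Slc11a2 (8.71 and 11.04) and Tfrc (9.38 and 11.26) were 2.33 and 1.88 higher. The exporter Slc40a1, ferroportin, was lower by 1.65 (10.62 and 8.97), and its helper ferroxidase gene Heph by 1.25 (11.48 and 10.23). The storage genes Fth1 (17.72 and 18.44) and Ftl1 (16.52 and 16.3) were less than 2-fold apart. Sod2, the mitochondrial superoxide dismutase, lay at 12.13 and 16.2 (4.07 higher), while Sod1 (14.11 and 13.75), Sod3 (12.53 and 11.7) and Nqo1 (9.05 and 8.62), a standard NRF2 target, were not higher. Of 28 NRF2 and glutathione genes 5 were counted higher and 1 lower, with a median of 0.06.

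Transporters of amino acids and other solutes showed 5 of 20 counted higher and 1 lower. Slc15a3, a lysosomal peptide carrier, lay at 8.18 and 13.62 (5.44 higher). The arginine carrier Slc7a2, which can feed nitric oxide synthase, lay at 9.87 and 13.36 (3.49 higher), while its relative Slc7a1 lay at 12.67 and 12.69. The cystine carrier Slc7a11 lay at 9.42 and 11.98. The general stress lists moved little: 1 of 28 unfolded protein response genes was counted higher and 0 lower, and 0 of 14 heat shock chaperones were higher and 1, Hspb1 (12.02 and 10.66), lower.

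Proteases and their inhibitors contained some of the largest differences among matrix genes. Of 9 matrix metalloproteinases past the floor 3 were counted higher and 2 lower, and the median of -0.08 was 0.02 with a loess trend removed. Mmp3, stromelysin, lay at 8.57 with PBS and 17.08 with secretome, which is 365-fold. Mmp12, the macrophage elastase, lay at 6.96 and 14.48 (184-fold), and the collagenase Mmp13 at 3.99 and 7.57, at least 1.02 higher. The constitutive enzymes Mmp2 (16.72 and 16.46) and Mmp14 (15.59 and 15.58) were nearly equal. Timp1 lay at 12.03 and 15.28 (3.25 higher), Timp2 at 16.41 and 15.93, and Timp3, the form bound to matrix, at 15.68 and 14.32 (lower by 1.36). The aggrecanase genes Adamts4 (6.64 and 9.45) and Adamts9 (11.45 and 13.93) were 2.81 and 2.48 higher. Serpinb2, an inhibitor of plasminogen activators, lay at 4.35 and 9.99, at least 3.44 higher.

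The structural matrix was largely level. None of the 17 collagen chains past the floor reached 2-fold (median -0.18). Col1a1 lay at 16.63 and 16.45, Col3a1 at 17.4 and 17.22, and the basement membrane chain Col4a1 at 13.83 and 13.79. In collagen processing P4ha2, a prolyl hydroxylase and HIF target, lay at 9.89 and 13.15 (3.26 higher) and the procollagen protease gene Adamts14 at 8.03 and 11.21 (3.18 higher), while the crosslinking enzyme Lox lay at 17.38 and 17.2. Of 32 glycoprotein and elastic fibre genes 1 was counted higher and 5 lower (median -0.48). The microfibril genes Mfap2 (11.19 and 9.56), Mfap4 (16.94 and 15.6) and Mfap5 (11.11 and 9.69) were among the lower. Fn1 (17.86 and 17.75), Postn (16.05 and 16.4) and Tnc (12.34 and 12.87) were less than 2-fold apart.

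Genes of hyaluronan, a water-binding matrix sugar, were mixed within the proteoglycan list. The synthase gene Has2 lay at 5.23 and 9.12 (at least 2.57 higher), the crosslinker Tnfaip6 at 8.55 and 10.96 (2.41 higher), the binding proteoglycan Vcan at 10.8 and 12.98 (2.18 higher), and the receptor Cd44 at 10.77 and 13.53 (2.76 higher). Cemip, which degrades it, was lower at 15.82 and 14.69. Hyal2, a hyaluronidase gene (9.17 and 9.12), and Stab1, a clearance receptor gene (8.0 and 7.64), were less than 2-fold apart, and the synthase genes Has1 and Has3 and the link protein gene Hapln1 lay below the floor. With Sdc4 (13.47 and 15.78), Has2, Tnfaip6, Vcan and Cd44 were the 5 higher genes of 26 in the proteoglycan list, which also held 5 lower genes and had a median of -0.43. The lower genes included the small leucine-rich members Aspn (12.65 and 11.05) and Fmod (13.8 and 12.6).

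Lists of fibroblast identity, activation and contraction genes had negative medians. Of 18 identity genes 0 were counted higher and 5 lower (median -0.76). These were Gsn (14.5 and 12.87), Igf1 (15.52 and 13.92), Cd34 (12.6 and 11.03), Cd248 (11.47 and 9.95) and Mfap5. Among 25 activated fibroblast and scar genes 2 were higher and 6 lower (median -0.5). Timp1 and Runx1 (9.07 and 11.6) were the higher genes, and Itga11 (9.54 and 8.0) and Pmepa1 (13.84 and 12.27), a TGF-beta target, were among the lower. Of 21 contractile genes of smooth muscle type, which mark myofibroblasts, 0 were higher and 6 lower (median -0.79). Calponin, Cnn1, lay at 9.49 and 7.59, the myosin kinase gene Mylk at 12.86 and 11.15, and the light chain gene Myl9 at 14.45 and 13.04. Acta2, the actin used to define myofibroblasts, lay at 17.9 and 17.38, and Tagln at 16.18 and 15.37, both less than 2-fold apart. Of the entries for 19 contractile genes, 4 held a CArG box, the binding sequence of serum response factor, against 1.69% of all genes past the floor, and 8 held the TEAD site GGAATG against 14.2%.

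Growth factor pathways held both higher and lower genes. In the TGF-beta, BMP and activin list 2 of 29 were counted higher and 6 lower (median -0.26). Bmp3 lay at 11.47 and 8.29 (lower by 3.18, 9.06-fold), the largest lower difference of any named gene. Tgfb2 (14.44 and 13.06) and Tgfb3 (14.24 and 12.6) were lower by 1.38 and 1.64, while Tgfb1 (12.6 and 13.4) was 0.8 higher. Of the FGF list 2 of 13 were higher and 4 lower (median 0.35). Fgf18 lay at 10.79 and 8.02 (lower by 2.77) and Fgf2 at 11.28 and 10.08, whereas Fgf9 lay at 7.53 and 9.49 (1.96 higher). Fgf23 lay at 5.97 and 12.08, at least 5.53 higher. Other growth factor genes were evenly split, 7 higher and 7 lower of 30. Angptl4, an inhibitor of lipoprotein lipase, lay at 4.42 and 10.01 (at least 3.46 higher), and Ereg, an EGF receptor ligand, at 10.38 and 12.97 (2.59 higher). Within the insulin-like growth factor group, the binding protein genes Igfbp5 (11.72 and 15.39) and Igfbp3 (10.8 and 13.07) were 3.67 and 2.27 higher, while Igf1 and Igfbp4 (13.24 and 11.72) were lower and the receptor gene Igf1r (12.46 and 12.3) was nearly equal.

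Of 21 Wnt genes 2 were counted higher and 4 lower (median -0.59). The receptor genes Fzd2 (13.78 and 12.09) and Fzd8 (11.67 and 9.98) were each lower by 1.69. Of 19 Notch, Hedgehog and Hippo genes 1 was higher and 4 lower (median -0.61). The Notch ligand Jag1 (13.86 and 12.62), the receptor Notch3 (8.14 and 6.87) and the targets Hes1 (8.23 and 6.86) and Hey2 (9.49 and 8.01) were the lower genes. The Hippo target genes Ccn1 (16.36 and 15.83), Ccn2 (16.61 and 16.11) and Ankrd1 (15.7 and 15.7) were less than 2-fold apart. Among integrins Itga2, a collagen receptor, lay at 5.92 and 11.3 (at least 4.75 higher), and Itga8 (12.68 and 10.82), Itga3 (12.75 and 11.13), Itga11 and Itga4 (13.44 and 12.31) were lower, out of 20. Epicardial genes gave 1 higher and 1 lower of 14 (median -0.61). Both were retinaldehyde dehydrogenases: Aldh1a2 lay at 11.93 and 14.65 (2.72 higher) and Aldh1a1 at 14.7 and 13.47 (lower by 1.23).

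Transcripts of cell division genes differed little. Of 28 mitosis genes and 28 DNA replication genes 0 reached 2-fold, with medians of -0.2 and 0.03. Mki67 lay at 14.19 and 14.1, Top2a at 10.3 and 10.41, and Pcna at 14.86 and 15.01. The 28 ribosomal protein genes had a median of 0.0 and differences between -0.26 (Rplp0) and 0.25 (Rpl23).

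Macrophage genes in the fibroblast culture moved in both directions. The 4 markers counted higher were Cd14, Itgam (9.38 and 10.71), Lyz2 and Adgre1 (9.24 and 10.45), against 9 counted lower. The lower markers included Trem2 (8.6 with PBS and 6.7 with secretome), the mannose receptor Mrc1 (12.76 and 11.04), the fractalkine receptor Cx3cr1 (8.63 and 6.99) and Mertk (10.25 and 8.91), a receptor for dying cells. Genes known from resident macrophages of the brain and other tissues stood among the 20 largest lower differences of all named genes: P2ry12 (9.03 and 6.63), Fcrls (12.49 and 10.3) and Tmem119 (11.63 and 9.51). Lyz2, a general myeloid gene, lay at 12.52 and 13.84. The number of macrophages and their state cannot be told apart here. The cells that carried P2ry12, Fcrls and Tmem119 were not identified. Other genes among the 20 largest lower differences were the vesicle gene Sytl2 (12.65 and 10.28), the protocadherin Pcdh18 (11.91 and 9.64), the succinate receptor Sucnr1 (9.13 and 7.01) and the sterol hydroxylase Cyp27a1 (10.45 and 8.53).

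The arrays of the other groups set these values in context. The Ccrl2+ secretome array of fibroblasts is compared with the same PBS array, so its differences are not independent and levels are given side by side. Cxcl5 lay at 3.93 there, Sele at 5.54, Acod1 at 3.94, Ifit1 at 5.74 and Slc16a3 at 7.83, each far below its level with Ccrl2- secretome. Lcn2 lay at 10.96, Hp at 9.92 and Lbp at 13.42, between the PBS and Ccrl2- secretome levels. Mt2 at 17.27 and Cp at 15.76 also lay between them, nearer to the Ccrl2- level. Genes lower with Ccrl2- secretome divided too. Bmp3 lay at 9.04 with Ccrl2+ secretome, Fgf18 at 8.09 and Pcdh18 at 9.83, nearer to the Ccrl2- level than to PBS. P2ry12 at 9.06, Sytl2 at 11.97 and Tmem119 at 11.55 lay nearer to PBS. The lower values of Bmp3, Fgf18 and Pcdh18 were thus not particular to the Ccrl2- secretome. Serpina3n lay at 8.88 with PBS, 12.98 with Ccrl2- secretome and 16.37 with Ccrl2+ secretome, so its order differed from that of Serpina3f at 6.66, 15.42 and 9.3.

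**Figure D5:**
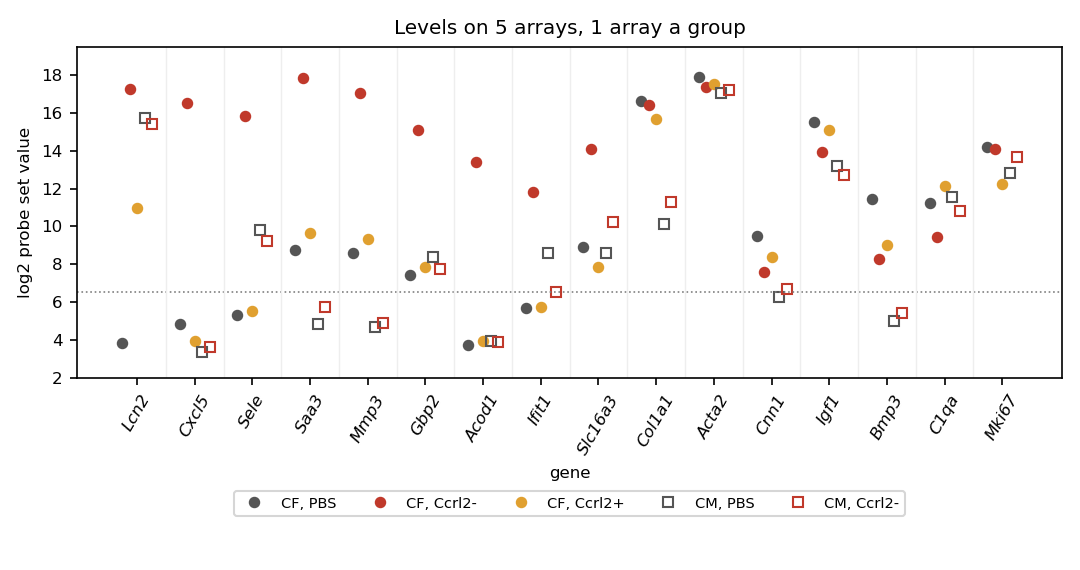
Log2 probe set values of 16 genes on 5 arrays, 1 array a group: fibroblasts (filled circles) with PBS (grey), Ccrl2- secretome (red) and Ccrl2+ secretome (amber), and cardiomyocytes (open squares) with PBS and Ccrl2- secretome. The dotted line is the floor of 6.55. From Lcn2 to Slc16a3 the red circle stands apart from the grey and amber ones, while Col1a1, Acta2 and Mki67 differ by less than 2-fold between PBS and Ccrl2- secretome.

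The cardiomyocyte arrays received the same secretome and share no array with the fibroblast comparison. There 75 of 10054 genes (0.746%) were counted higher and 79 (0.786%) were counted lower. Of the 622 genes higher in CF, 494 were past the floor in CM, where 5 were counted higher (1.01%), 16 lower (3.24%), and the median was -0.09. Of the 486 lower in CF, 410 were past the floor, 17 higher (4.15%) and 7 lower (1.71%) in CM, with a median of 0.02. Across the 9451 genes past the floor in both, which are not independent replicates, Pearson's r of the differences was -0.09. The genes higher in both were Slc16a3 (8.6 and 10.26 in CM), Ndufa4l2 (7.54 and 8.87), Pde1a (7.78 and 9.06), a phosphodiesterase of cyclic nucleotides, Has2 (5.51 and 6.94) and Cyp7b1 (5.63 and 6.7). Counted from the floor, the last pair were at least 0.39 and 0.15 higher in CM. They were 5 of the 75 genes higher in CM (6.67%), close to the 6.18% of all genes higher in CF. Of 34 antiviral effector genes past the floor in CM 0 were higher and 7 lower (median -0.44), against 33 of 39 higher in CF. The list of HIF targets had a median of 0.32 in CM with 1 of 26 counted higher. The difference between the cell types was not tested.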

How the data were processed

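Between 1 and 8 ug of total RNA a sample was biotinylated for Affymetrix arrays, per the labels' protocols. The submitters' processing notes name Expression Console, with which the authors summarised each probe set, and the values deposited lie on a log2 scale. Software version, summary algorithm, build: not given in the sources used here. The sorted values of the arrays differed by at most 0.3, so a shift of most genes in 1 direction could not be seen. The platform annotation gave 1 symbol for 19572 of 28846 probe sets, and 5222 were negative controls. For 55 symbols with several probe sets the brightest was used, leaving 19505 genes.

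Columns were subtracted on the log2 scale. A gene was past the floor when its higher value reached 6.55 and counted at a difference of 2-fold. Where the dimmer value lay below the floor, the difference to the floor is printed as "at least". Named genes were the 20 largest differences per direction, up to 8 largest and 3 nearest 0 in each of 64 lists, members of lists of up to 10 genes and all cell type markers. Genes below the floor or named for their place in a pathway were chosen after their values were seen. The comparison, the members and the lists were chosen with earlier results of these data known. Lists share members. Alternatives were thresholds of 1.5- and 3-fold, other floors, quantile normalization, a loess trend (span 0.4), the mean of probe sets and, for motifs, bases before the start. The counting step was checked on simulated data. The tools were matplotlib 3.10.9, statsmodels 0.14.6, scipy 1.17.1, pandas 2.3.3 and numpy 2.4.6 under Python 3.11.15.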

Additional observations from a re-analysis of the deposited data

Results flagged for a closer look

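Some genes differed by at least 2-fold in opposite directions in fibroblasts and in cardiomyocytes with the Ccrl2- secretome, each from 1 array a side. Differences here are between the values as deposited, and those that involve a value below the floor are given from the floor at the end. The difference between the cell types was not tested. The log2 difference from PBS was positive in CF and negative in CM for the interferon-stimulated genes Ifit1 (6.12 and -2.03), Oasl2 (4.89 and -1.45), Usp18 (4.38 and -1.24), Ifit3b (4.32 and -1.44), Ifit3 (4.31 and -1.16), Rsad2 (4.21 and -2.56) and Mx2 (3.21 and -1.04). The same held for the chemokine gene Ccl3 (5.71 and -1.29), the scavenger receptor gene Marco (5.65 and -1.04), the transporter genes Slc15a3 (5.44 and -1.31) and Slc7a11 (2.56 and -1.3), and the AP-1 genes Fosl1 (2.04 and -1.83) and Jun (1.02 and -1.02). It was negative in CF and positive in CM for the integrin gene Itga8 (-1.86 and 1.69), the myosin kinase gene Mylk (-1.71 and 1.29), the stromal marker Cd248 (-1.52 and 1.91), the feedback inhibitor gene Spry1 (-1.41 and 1.26) and the growth factor gene Fgf2 (-1.2 and 1.49). Counted from the floor, the CF differences of Ifit1, Rsad2, Marco and Fosl1 were at least 5.28, 3.1, 5.13 and 1.06, and the CM difference of Itga8 was at least 1.6. On that count the CM differences of Marco (-0.97) and Mx2 (-0.63) were under 2-fold. The CM directions were not particular to the Ccrl2- secretome. On the CM array with Ccrl2+ secretome each gene named here lay on the same side of PBS. Ifit1 lay at 6.62 there against 8.58 with PBS, Rsad2 at 7.45 against 9.53, and Itga8 at 7.55 against 6.46. Both CM secretome arrays are compared with the same PBS array.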

How the results depend on the processing

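With 1 array a group, no alternative can stand in for a replicate, and no value has an error. No paired analysis was possible because each group had 1 array. The counts of 622 higher and 486 lower genes were 1071 and 1490 at 1.5-fold, 395 and 102 at 3-fold, 363 and 260 with the floor at the 75th percentile (10.14), and 315 and 214 with the floor at the 95th percentile of the controls (10.74). They were 713 and 563 with no floor, 560 and 438 with values raised to the floor, 619 and 484 after quantile normalization and 682 and 373 with a loess trend removed, which moved the median of all genes from -0.09 to 0.02. Of 611 gene differences 592 kept their side of 2-fold under the alternatives run on them. Among those counted higher or lower 0 changed sign, and sign changes of the rest were not counted. Of 63 list medians 50 kept their side of 2-fold and 10 changed sign under at least 1 alternative. In 1 of these the median was at least 1: MHC class II genes, 1.87, came to -0.11 with no floor, which adds the 8 members below it. The other 9 had medians under 1, and the FGF list moved from 0.35 to -0.8 with the highest floor. Medians of chemokine, cytokine, acute phase, adhesion, microbe receptor and itaconate and nitric oxide enzyme lists rest on the members past the floor.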

Other observations

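The clock of the cells, a set of transcription factors that repress each other in turn, showed few differences between the Ccrl2- secretome and PBS arrays of fibroblasts. Of 15 clock genes past the floor 2 were counted higher and 1 lower (median 0.11). The repressor genes Bhlhe40 (13.34 with PBS and 14.81 with secretome) and Nfil3 (8.08 and 9.41) were the higher ones, and the output factor gene Dbp (14.46 and 12.95) the lower. The core genes Arntl (10.44 and 11.34) and Clock (14.16 and 13.67) were less than 2-fold apart. Of 15 genes of the glucocorticoid receptor and its targets 4 were counted higher and 2 lower (median 0.11). The receptor gene Nr3c1 lay at 9.3 and 9.92, and its widely used target Tsc22d3 at 9.92 and 9.09.

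In the TNF superfamily list, which did not hold Tnf itself, 3 of 12 ligands reached the floor. Of these 2 were counted higher, both with PBS values below the floor. Tnf, given above with the cytokines, was at least 5.75 higher. The costimulatory ligand gene Tnfsf9 lay at 5.02 and 7.34 and Tnfsf15 at 5.16 and 6.6, at least 0.79 and 0.05 higher. Of 8 chondrogenic and osteogenic genes past the floor 0 were counted higher and 1, Fmod, lower (median -0.64). Neuronal and Schwann cell markers reached the floor in 3 of 10 cases, with the sodium channel gene Scn7a lower at 11.26 and 9.55. Pericyte and smooth muscle markers did so in 5 of 11 cases, with Notch3 lower, and adipocyte markers in 2 of 9, with Fabp4 higher.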
